A study of Caenorhabditis elegans with 22 samples.

Results

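Small RNA was sequenced from whole wild-type (strain N2) hermaphrodites of Caenorhabditis elegans, and the comparison described here set 3 libraries labelled rotenone against 3 labelled 2-deoxyglucose, all from worms 5 days old. These 6 of the 22 libraries were taken by their age and perturbation labels alone. The labels give 0.039441 µg/ml for rotenone, which inhibits complex I of the mitochondrial respiratory chain, and no dose for 2-deoxyglucose, a glucose analogue that blocks glycolysis. The remaining libraries were of the same strain and treatments at days 1, 10 and 20. DMSO stands in the series title where samples and design are labelled 2-deoxyglucose, and the sample labels are followed here. No group without either compound was analysed here, so "higher in rotenone" and "lower in 2-deoxyglucose" cannot be told apart. Of the 250 miRNA hairpins counted, 132 had at least 10 counts in at least 3 of the 6 libraries and were tested. The 118 hairpins left out held 0.0113% of the counts, and 40 of them had no count in any of the 6 libraries.

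A miRNA is cut from a hairpin precursor and guides Argonaute proteins to messenger RNAs, which are then repressed. Hairpins that share a seed sequence form families, and members of a family are often transcribed together from a cluster. In the worm the mir-35 family is made in the germline and embryos, let-7 and lin-4 time larval stages, and several other hairpins act in adult lifespan and stress responses. No mature or hairpin sequence was used here, and each hairpin had a single count that sums its arms.

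Total counts were 1947265, 2233973 and 1088640 in rotenone libraries 1 to 3 and 1166234, 664900 and 979603 in 2-deoxyglucose libraries 1 to 3, so that a single count stood for 0.505 to 1.71 CPM. CPM here are counts divided by the TMM-scaled library size, in the usual unit. Markers of muscle (mir-1), intestine (mir-60), neurons (lsy-6, mir-124, mir-790 and mir-791) and glia (mir-228) had counts in every library. The day 5 libraries differed more within their groups than those of other ages. The median SD on the log2 scale was 0.241 in the rotenone group and 0.223 in the 2-deoxyglucose group, against 0.0962 to 0.173 in the 6 groups of the other ages. The axis that held the largest share of the variance among the 6 libraries (41.6%) did not follow the treatment. Rotenone library 1 (-1.51) lay on the side of 2-deoxyglucose libraries 2 (-3.80) and 3 (-1.56), and 2-deoxyglucose library 1 (2.20) lay with rotenone libraries 2 (1.64) and 3 (3.02). Whether library 1 of either group was mislabelled, exchanged or handled differently was not tested; the labels were kept, and an exchange would change every day 5 difference given here. The next axis (25.9%) held the rotenone libraries at 2.87, 2.42 and -0.59 and the 2-deoxyglucose libraries at -1.98, -0.99 and -1.73, so rotenone library 3 stood closest to the other group. The labels place the rotenone libraries in lanes 6, 7 and 1 and the 2-deoxyglucose libraries in lanes 2, 3 and 4, so lane and treatment cannot be told apart within day 5. Separate cultures are not stated for the libraries of a group, and p-values therefore measure the spread between libraries, which may be technical.

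**Figure D1:**
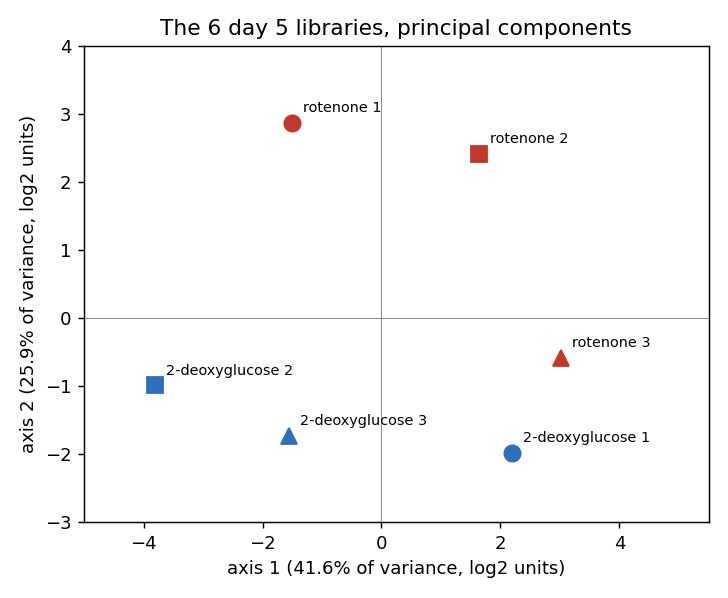
Principal components of log2 CPM in the 6 day 5 libraries (132 hairpins), with axis 1 (41.6% of the variance) across and axis 2 (25.9%) upwards, both in log2 units. Each point is a library, red for rotenone and blue for 2-deoxyglucose. The groups mix along axis 1 and separate along axis 2, where rotenone library 3 (-0.59) lies nearest to the 2-deoxyglucose libraries.

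Between rotenone and 2-deoxyglucose at day 5, 17 of the 132 hairpins (12.9%) passed an adjusted p of 0.05 in edgeR's quasi-likelihood test, in which the spread was shared over all 22 libraries. Of these, 12 (9.09%) were higher in rotenone and 5 (3.79%) were lower. The higher ones were mir-36, mir-39 and mir-40 of the mir-35 family, mir-51, the neighbours mir-250 and mir-61, the intronic mir-1829b and mir-86, and mir-788, mir-76, mir-1022 and mir-242. The lower ones were mir-355, mir-87, mir-246, mir-81 and mir-239b. Differences were modest: the log2 difference, given throughout as rotenone minus 2-deoxyglucose with its SE, exceeded 1 in size in mir-788 alone, and its median over the 132 hairpins was 0.06. The CPM of the 3 rotenone and the 3 2-deoxyglucose libraries did not overlap in 14 of the 17. Over all 132 hairpins the groups did not overlap in 23 (17.4%), with rotenone above in 16 (12.1%) and below in 7 (5.3%). The filter used raw counts, and rotenone libraries 1 and 2 were the deepest, so scarce hairpins high in rotenone entered more readily. The 16 include mir-5545 and mir-797, which reached 10 counts in the rotenone libraries only. The split of 16 against 7 may therefore be tilted towards rotenone by the filter. When the TMM factors were computed with the 5 most abundant hairpins and the mir-35 family set aside, the split was 20 higher and 1 lower, and mir-355 was the only lower hairpin to pass.

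These calls rest on the spread borrowed from the other ages. With the 6 day 5 libraries alone, edgeR passed 0 hairpins (15, or 11.4%, had an unadjusted p under 0.05), limma-voom passed 0 (17 unadjusted), and DESeq2 passed 2 (1.52%; 13 unadjusted), which were mir-1829b and mir-788. In edgeR on these libraries all 17 kept their sign and 13 had an unadjusted p under 0.05. Both fits use the same day 5 libraries, so the kept signs are no separate support. Leaving out 1 library at a time gave between 11 calls (without rotenone library 2) and 21 (without 2-deoxyglucose library 1), and 7 hairpins passed in each of the 6 omissions: mir-1829b, mir-86, mir-355, mir-51, mir-36, mir-250 and mir-788. Of these, mir-250 and mir-788 did not pass in limma-voom with quality weights on the 22 libraries (adjusted p = 0.0744 and 0.0883). Without library 1 of both groups, 29 hairpins passed and 9 of the 17 were among them: mir-36, mir-51, mir-1829b, mir-86, mir-788, mir-355, mir-87, mir-246 and mir-81. Those libraries are the ones that the leading axis placed with the other group, so their omission favours hairpins that follow that axis.

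**Figure D2:**
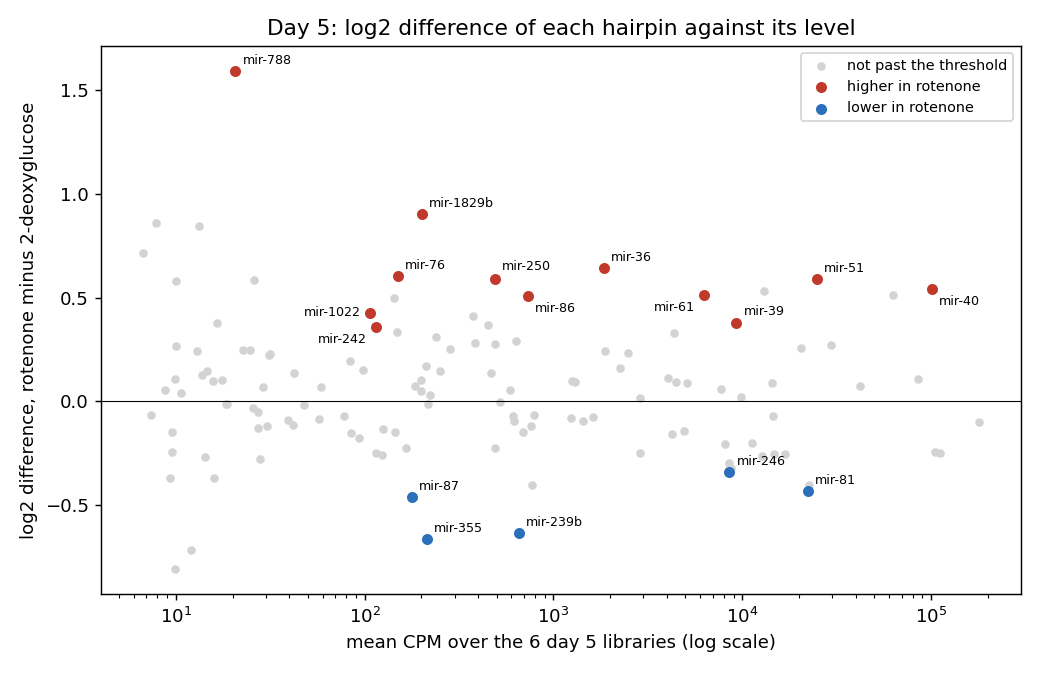
Log2 difference (rotenone minus 2-deoxyglucose) of each of the 132 hairpins at day 5, upwards, against its mean CPM over the 6 libraries on a log axis. Red and blue points passed the threshold as higher or lower in rotenone, and grey points did not. In mean CPM the 17 calls range from mir-788 (rank 108 of 132) to mir-40 (rank 4), and mir-788 has the largest difference (1.59).

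The mir-35 family, which is essential for embryonic development, was measured with all 8 of its members, and 3 of them were higher in rotenone while none was lower, where 9.09% of all hairpins tested were called higher. Its median log2 difference was 0.46, against 0.06 over all hairpins tested, and 7 of the 8 differences were above 0. The family took 22.1%, 23.1% and 17.7% of all counts in rotenone libraries 1 to 3 and 14.9%, 15.1% and 14.9% in the 2-deoxyglucose libraries. In summed CPM the rotenone libraries held 241960, 260500 and 166520 and the 2-deoxyglucose libraries 148060, 171100 and 145880, so that rotenone library 3 lay under 2-deoxyglucose library 2 on this scale. Worms of this age can hold eggs. In whole worms, more embryonic or germline cells and more RNA per cell cannot be told apart, and the part of egg content in the other differences was not tested.

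Within the family mir-36 had the largest difference. It held 1985, 2442 and 2326 CPM in the rotenone libraries and 1871, 1170 and 1280 CPM in the 2-deoxyglucose libraries. All rotenone values lay above the others, by a narrow margin between rotenone library 1 and 2-deoxyglucose library 1. On the log2 scale the difference was 0.64 ± 0.14 (edgeR adjusted p = 0.00654; unadjusted p = 0.0301 in edgeR on the 6 libraries alone).

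For mir-39 the rotenone libraries held 11040, 10958 and 9551 CPM and the 2-deoxyglucose libraries 7279, 8660 and 8318 CPM. The groups did not overlap, and the log2 difference was 0.38 ± 0.10 (edgeR adjusted p = 0.0123; unadjusted p = 0.114 on the 6 libraries alone). The call was lost without 2-deoxyglucose library 1 (log2 difference 0.26, edgeR adjusted p = 0.108).

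The most abundant member by count, mir-40, held 137890, 132200 and 90104 CPM in rotenone and 75154, 94077 and 77888 CPM in 2-deoxyglucose. Rotenone library 3 lay below 2-deoxyglucose library 2, so the groups overlapped. The log2 difference was 0.54 ± 0.17 (edgeR adjusted p = 0.0414; unadjusted p = 0.0401 on the 6 libraries alone). The call held in 2 of the 6 single omissions and was lost without rotenone library 1 or 2 or without 2-deoxyglucose library 1 or 3.

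The other members did not pass. For mir-35 the rotenone libraries held 72178, 96117 and 53534 CPM against 52198, 55795 and 47382 CPM, with a log2 difference of 0.51 ± 0.18 (edgeR adjusted p = 0.064). For mir-37 they held 18232, 17927 and 10285 CPM against 10867, 10865 and 10423 CPM (0.53 ± 0.19, edgeR adjusted p = 0.0736). In both, rotenone libraries 1 and 2 were high and rotenone library 3 lay within the 2-deoxyglucose range or, for mir-37, just below it. A different pair of libraries stood out in mir-38, where rotenone library 1 (319 CPM) was the lowest of its group and 2-deoxyglucose library 1 (384 CPM) the highest of its group, with a log2 difference of 0.41 ± 0.17. The same 2 libraries came closest to each other in mir-36. The remaining members differed little, at 0.15 ± 0.20 for mir-42 and -0.02 ± 0.26 for mir-41. Hairpins mir-35 to mir-41 lie together on chromosome II (11537608-11538404, plus strand, assembly WBcel235, on the opposite strand to an intron of Y62F5A.9), while mir-42 lies in another cluster on the same chromosome. The count of family members that passed ranged from 1 (without 2-deoxyglucose library 1) to 5 (without rotenone library 3) in the single omissions.

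**Figure D3:**
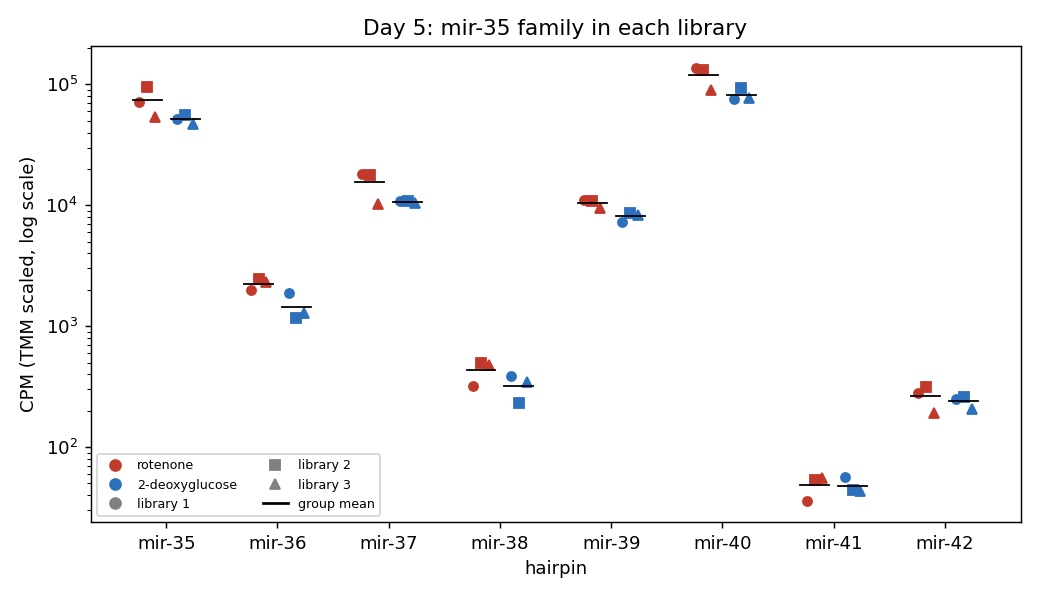
CPM of the 8 mir-35 family hairpins in each day 5 library, on a log axis, with 1 point per library and a line at the group mean (red rotenone, blue 2-deoxyglucose; the marker shape gives the library). The rotenone means lie above the 2-deoxyglucose means for mir-35 to mir-40, and rotenone library 3 falls to the level of the 2-deoxyglucose libraries for mir-35 and mir-37.

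The mir-51 family, widely expressed and required in embryogenesis, had 1 of its 6 members higher in rotenone, where 9.09% of all hairpins tested were called higher. Its median log2 difference was 0.09, close to the 0.06 over all hairpins tested, and ranged from -0.02 to 0.28 in the single omissions. The member called, mir-51, held 35828, 31670 and 22341 CPM in the rotenone libraries and 20110, 19802 and 19793 CPM in the 2-deoxyglucose libraries. The 2-deoxyglucose values were almost equal, and all 3 rotenone values lay above them with library 3 closest. This gave a log2 difference of 0.59 ± 0.13 (edgeR adjusted p = 0.00609; unadjusted p = 0.0295 on the 6 libraries alone). It lies on chromosome IV (11026013-11026112, minus strand), 1480 bases from mir-53, whose log2 difference was 0.06 ± 0.19. In the X chromosome cluster of mir-54, mir-55 and mir-56 the differences were 0.09 ± 0.29, -0.07 ± 0.20 and 0.26 ± 0.17, none past the threshold. The levels of mir-54, singled out after they were seen, split the libraries as the leading axis did, with 2998 CPM in rotenone library 1 and 5270 and 7497 in libraries 2 and 3, against 7639 in 2-deoxyglucose library 1 and 3508 and 3665 in libraries 2 and 3.

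Both hairpins of a pair on chromosome V, mir-250 (11769917-11770015) and mir-61 (11770060-11770156, 44 bases away on the same minus strand), were higher in rotenone. Hairpin mir-61 is known to act in Notch signalling during vulval development. The rotenone libraries held 632, 599 and 527 CPM of mir-250 and the 2-deoxyglucose libraries 372, 374 and 424 CPM, without overlap. Its log2 difference was 0.59 ± 0.14 (edgeR adjusted p = 0.00822; unadjusted p = 0.014 on the 6 libraries alone). For mir-61 the rotenone libraries held 8362, 7709 and 6038 CPM and the 2-deoxyglucose libraries 3992, 6291 and 5217 CPM. Rotenone library 3 and 2-deoxyglucose library 2 overlapped, and the log2 difference was 0.51 ± 0.15 (edgeR adjusted p = 0.0366; unadjusted p = 0.0626 on the 6 libraries alone). The mir-61 call was lost without rotenone library 1 or 2 or without 2-deoxyglucose library 1 or 3. Relatives of mir-61 went the other way without passing: mir-44 and mir-45, whose counts were within 2.51% of each other in every day 5 library and cannot be told apart, each had a log2 difference of -0.32 ± 0.15. Both were called lower without rotenone library 1 and without 2-deoxyglucose library 1.

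The smallest adjusted p belonged to mir-1829b, an intronic hairpin of the gene F20D1.3 (chromosome X, 14977119-14977178, same strand as the gene). The rotenone libraries held 233, 294 and 261 CPM and the 2-deoxyglucose libraries 140.3, 132 and 148 CPM. The lowest rotenone library was 1.58 times the highest 2-deoxyglucose library. The log2 difference was 0.90 ± 0.10, a 1.87-fold higher level in rotenone (edgeR adjusted p = 4.46e-06; unadjusted p = 0.000796 on the 6 libraries alone). On the 6 libraries alone the DESeq2 adjusted p was 0.0209. The scarcer relative mir-1829a, named after its values were seen, also had rotenone above in all libraries (14.6, 10.1 and 11.3 CPM against 5.95, 8.54 and 10.001 CPM) but did not pass (0.58 ± 0.32, edgeR adjusted p = 0.289). The more abundant mir-1829c, also named after its values were seen, overlapped between the groups at 59.1, 55.6 and 52.8 CPM against 61.2, 54.7 and 61.0 CPM (-0.08 ± 0.14).

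The second intronic hairpin, mir-86, lies in Y56A3A.7 on chromosome III (11936637-11936734, same strand). It held 818, 964 and 802 CPM in the rotenone libraries and 646, 569 and 599 CPM in the 2-deoxyglucose libraries. The groups were separate, with a log2 difference of 0.51 ± 0.10 (edgeR adjusted p = 0.0031; unadjusted p = 0.0279 on the 6 libraries alone).

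The largest difference was that of mir-788 (chromosome X, 8485294-8485371), a scarce hairpin. It had 46, 49 and 51 counts in the rotenone libraries and 14, 5 and 9 counts in the 2-deoxyglucose libraries, or 25.9, 24.8 and 44.1 CPM against 11.9, 8.54 and 9.0 CPM. Every rotenone library was at least 2.08 times every 2-deoxyglucose library. The log2 difference was 1.59 ± 0.37, a 3.01-fold higher level in rotenone (edgeR adjusted p = 0.00822). On the 6 libraries alone the edgeR p was 0.0013 unadjusted and 0.0858 adjusted, and the DESeq2 adjusted p was 0.0348.

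The hairpins mir-76, mir-1022 and mir-242 were also higher in rotenone with smaller or less stable differences. For mir-76 (chromosome III, 3142045-3142141) the rotenone libraries held 211, 179.8 and 148 CPM and the 2-deoxyglucose libraries 105, 132 and 123 CPM. The groups were separate, with a log2 difference of 0.60 ± 0.15 (edgeR adjusted p = 0.0123; unadjusted p = 0.0179 on the 6 libraries alone), and the call was lost without library 1 of either group. For mir-1022 (chromosome X, 6435425-6435512) the values were 128, 117 and 125 CPM against 103, 83.7 and 86.0 CPM, also separate. Its log2 difference was 0.43 ± 0.13 (edgeR adjusted p = 0.0414; unadjusted p = 0.0665 on the 6 libraries alone), and the call was lost in each of the 6 single omissions. For mir-242 (chromosome IV, 4274247-4274342, opposite an exon of nhr-78) they were 135, 133 and 117 CPM against 91.8, 97.4 and 112 CPM. These groups came within 1.04 times of each other, with a log2 difference of 0.36 ± 0.12 (edgeR adjusted p = 0.0486; unadjusted p = 0.132 on the 6 libraries alone), and the call held only without 2-deoxyglucose library 3.

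Of the 5 hairpins lower in rotenone, mir-355 (chromosome II, 11833536-11833645), which was counted among the stress-linked hairpins, had the smallest adjusted p. It held 181, 168 and 145 CPM in the rotenone libraries and 239, 236 and 309 CPM in the 2-deoxyglucose libraries. The groups were separate, with a log2 difference of -0.66 ± 0.14, a 1.58-fold lower level in rotenone (edgeR adjusted p = 0.00549; unadjusted p = 0.00215 on the 6 libraries alone).

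Hairpin mir-87 lies in an intron of kup-1 on chromosome V (12038688-12038781, same strand). It held 159, 149 and 140.2 CPM in the rotenone libraries and 168, 234 and 221 CPM in the 2-deoxyglucose libraries, with 2-deoxyglucose library 1 close to the rotenone values. The log2 difference was -0.46 ± 0.13 (edgeR adjusted p = 0.0239; unadjusted p = 0.0102 on the 6 libraries alone). The call held only without library 1 of either group, and was lost without any of the 4 other libraries.

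The lifespan hairpins mir-246 and mir-239b were lower in rotenone. Loss of mir-246 shortens life, whereas loss of the mir-239 locus lengthens it. The rotenone libraries held 7222, 8220 and 7172 CPM of mir-246 (chromosome IV, 10940134-10940230) and the 2-deoxyglucose libraries 8647, 11000 and 8994 CPM, a separate but small difference of -0.34 ± 0.10 on the log2 scale (edgeR adjusted p = 0.0366; unadjusted p = 0.0361 on the 6 libraries alone). This call was lost without rotenone library 1, rotenone library 3 or 2-deoxyglucose library 2. For mir-239b (chromosome X, 11791302-11791399) the values were 358, 556 and 632 CPM against 884, 663 and 844 CPM. Rotenone library 1 was the lowest and the groups did not overlap, with a log2 difference of -0.64 ± 0.20 (edgeR adjusted p = 0.0463; unadjusted p = 0.0133 on the 6 libraries alone). The mir-239b call was lost without rotenone library 1 or 2 or without 2-deoxyglucose library 1 or 3. The related mir-239a did not differ beyond its spread, with 923, 1428 and 1244 CPM against 1275, 1220 and 1307 CPM (-0.08 ± 0.14).

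Hairpin mir-81, a bantam relative of the mir-58 family on chromosome X (2431072-2431179, opposite an intron of gid-2), held 20798, 17688 and 18435 CPM in rotenone and 19897, 34046 and 22790 CPM in 2-deoxyglucose. The groups overlapped, 2-deoxyglucose library 2 stood far above the others, and without it the log2 difference was -0.17 (edgeR adjusted p = 0.359). The log2 difference was -0.43 ± 0.14 (edgeR adjusted p = 0.044; unadjusted p = 0.0371 on the 6 libraries alone), and the call was also lost without rotenone library 2 or rotenone library 3. The other members of the family that were tested, mir-82 (-0.10 ± 0.12), mir-80 (-0.25 ± 0.11) and mir-58a (0.11 ± 0.14), did not pass, although mir-82 and mir-80 had the highest mean CPM of all hairpins. The lists also named mir-58b, which had too few counts for the test, and mir-1834, which was not among the 250 hairpins counted.

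**Figure D4:**
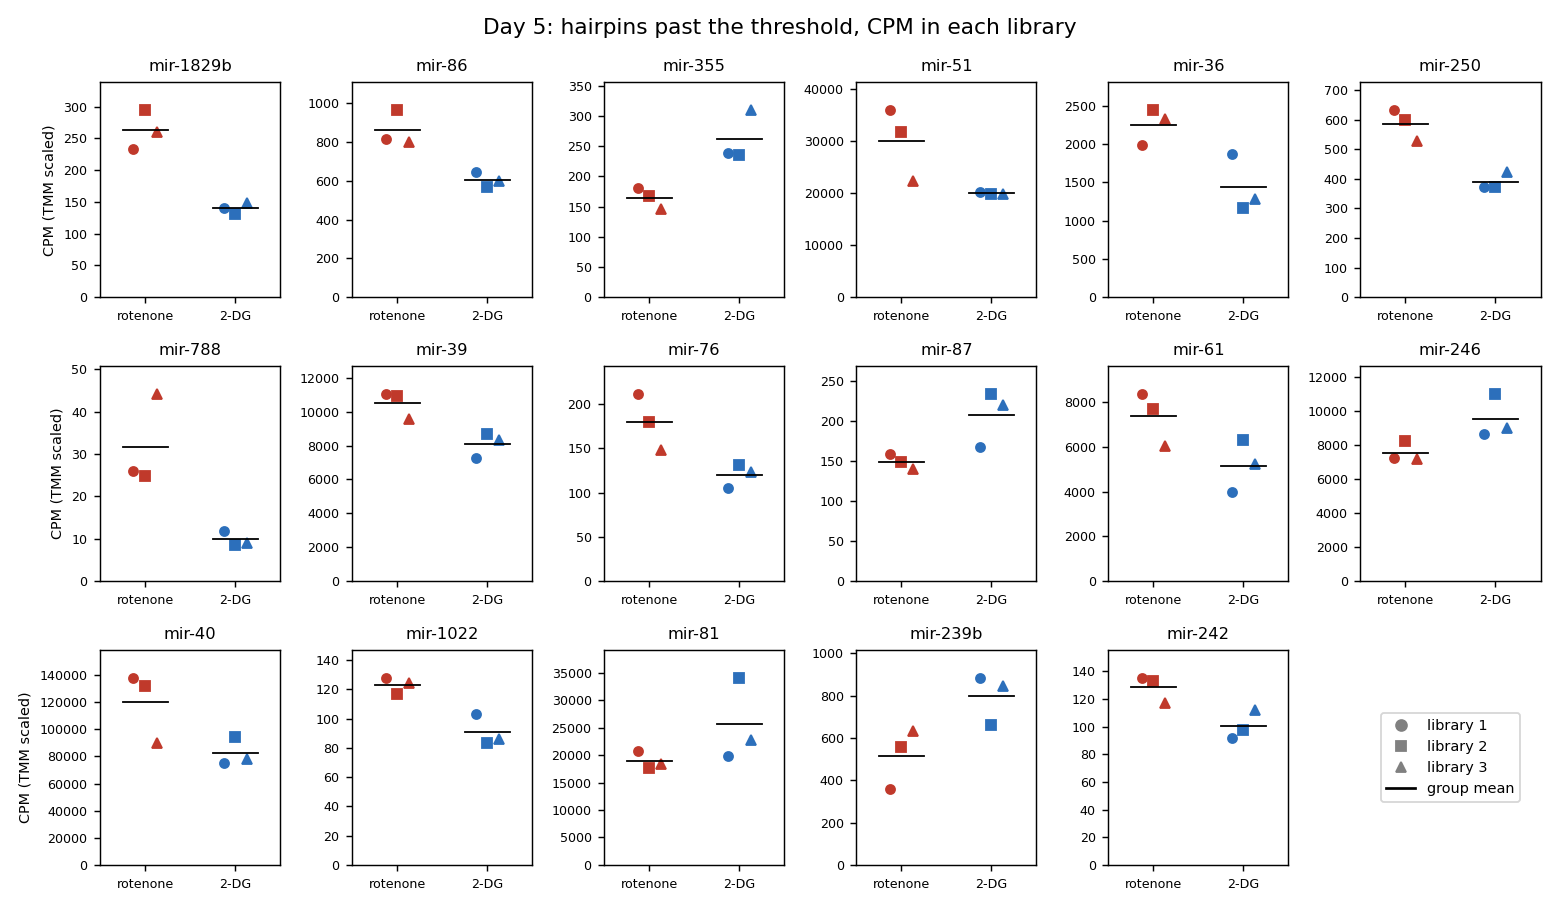
CPM in each day 5 library of the 17 hairpins that passed the threshold, 1 panel each with its own axis from 0, red for rotenone and blue for 2-deoxyglucose (2-DG), with a line at the mean of 3 libraries. In 14 of the 17 panels the groups do not overlap; the exceptions are mir-61, mir-40 and mir-81.

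The heterochronic families showed no called member. In the let-7 family 0 of 7 members passed, and the median log2 difference was -0.08. Hairpin let-7 held 1659, 1599 and 1461 CPM in rotenone and 1416, 1888 and 1677 CPM in 2-deoxyglucose, with overlap (-0.08 ± 0.11). The widest in the family were mir-794 (0.33 ± 0.13, edgeR adjusted p = 0.0971) and mir-48 (-0.26 ± 0.09, edgeR adjusted p = 0.0835). In mir-48 the rotenone libraries (14092, 15615 and 16631 CPM) all lay below the 2-deoxyglucose libraries (17486, 20501 and 17323 CPM). Of the lin-4 family, lin-4 itself had a log2 difference of -0.09 ± 0.16 and mir-237 one of 0.09 ± 0.13. Both family medians turned positive (0.04 for let-7 and 0.12 for lin-4) when the TMM factors ignored the 5 most abundant hairpins and the mir-35 family, a scaling that moved the median of all hairpins by 0.12 and under which 1 let-7 family member was called higher. In the single omissions 1 let-7 family member was called lower without 2-deoxyglucose library 1 (median -0.24) and 1 higher without 2-deoxyglucose library 2 (median 0.01), and the median was -0.23 without rotenone library 3.

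Other lists held few calls. Of the 9 lifespan-linked hairpins 2 were lower in rotenone (mir-246 and mir-239b), none was higher, and the median was -0.25, where 3.79% of all hairpins tested were called lower and their median was 0.06. With TMM factors that ignored the 5 top hairpins and the mir-35 family, none of the 9 passed and the median was -0.12. None passed without rotenone library 1 either, 1 was lower without rotenone library 3, 2-deoxyglucose library 2 or 2-deoxyglucose library 3, and the median was -0.16 without 2-deoxyglucose library 2. The others lay between -0.30 ± 0.12 for mir-238, whose loss shortens life, and 0.02 ± 0.09 for mir-71, which promotes long life. Among them mir-34, a regulator of stress responses, differed by -0.07 ± 0.12. Of the 11 stress-linked hairpins 2 were lower (mir-355 and mir-239b), with a median of -0.25; 6 hairpins stand on both lists. Under that same scaling 1 was higher and 1 lower with a median of -0.13, and the same held without rotenone library 1. Without 2-deoxyglucose library 2 the median was -0.16, and without 2-deoxyglucose library 3 only 1 was lower. Both list medians were also negative at day 1, so they are not particular to day 5. At day 1 the lifespan-linked median was -0.28 with 1 called lower, and the stress-linked median was -0.28 with 0 called. At day 10 the medians were 0.06 and 0.09. The mir-64 cluster on chromosome III (2172452-2173206) had 4 members, none past the threshold, at -0.25 ± 0.18 (mir-229), -0.26 ± 0.15 (mir-64), -0.25 ± 0.15 (mir-65) and -0.14 ± 0.09 (mir-66). In this cluster 2 members were called lower without rotenone library 1 (median -0.30) and 2 without 2-deoxyglucose library 1 (median -0.40), and the median was -0.16 without rotenone library 2 and -0.12 without 2-deoxyglucose library 2. The 3 mir-72 relatives (mir-72, mir-73 and mir-74) had a median of 0.07 and no call; the median ran from -0.08 (without rotenone library 1) to 0.25 (without rotenone library 2), and 1 was called higher without 2-deoxyglucose library 1.

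None of the 9 hairpins of differentiated tissues passed, and their median was 0.23. It was 0.14 without rotenone library 1, 0.09 without rotenone library 2, 0.08 without 2-deoxyglucose library 2 and 0.06 without library 1 of both groups. In muscle, mir-1 held 518, 544 and 549.6 CPM in rotenone and 569, 289 and 460.03 CPM in 2-deoxyglucose (0.28 ± 0.18). In the intestine, mir-60 held 1788, 2056 and 4179 CPM against 3691, 1025 and 2077 CPM (0.23 ± 0.32), and the spread within each group was wider than the distance between them. In glia, mir-228 held 89037, 114050 and 85474 CPM against 151340, 97239 and 93471 CPM (-0.25 ± 0.16), where 2-deoxyglucose library 1 stood high. The neuronal hairpins lsy-6 (0.38 ± 0.30), mir-124 (0.27 ± 0.48), mir-790 (0.17 ± 0.26) and mir-791 (-0.05 ± 0.21) all overlapped between the groups.

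Outside the calls, 9 more hairpins had groups that did not overlap. Rotenone lay above for mir-358, mir-245, mir-5545, mir-797, mir-1829a and mir-4813 and below for mir-48, mir-248 and mir-5592-1; mir-248, mir-5592-1, mir-1829a and mir-4813 were named after their values were seen. The nearest to the threshold was mir-358, with 18.6, 17.7 and 15.6 CPM against 13.6, 6.83 and 7.0 CPM (0.84 ± 0.29, edgeR adjusted p = 0.068). For mir-245 the values were tight within both groups, at 2040, 2036 and 1992 CPM against 1651, 1780 and 1699 CPM (0.24 ± 0.09, edgeR adjusted p = 0.0835). The other large differences that did not pass belonged to scarce hairpins, mir-5545 (0.86 ± 0.45), mir-354 (-0.81 ± 0.49), mir-797 (0.72 ± 0.51) and mir-800 (-0.72 ± 0.43). Of these, mir-5545 had 19, 18 and 12 counts in rotenone and 4, 4 and 7 in 2-deoxyglucose. Hairpin mir-797 had 13, 17 and 11 counts against 8, 3 and 3. Both entered the test through the rotenone libraries alone, where they are high, so their separation is no support for a difference.

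The day 5 differences were set against those of the same treatments at other ages, in the same fit. Rotenone differed from 2-deoxyglucose in 16 hairpins at day 1 (12.1%), 8 at day 10 (6.06%) and 1 at day 20 (0.758%). Of the 17 day 5 calls, mir-39 and mir-246 were also called at day 1, with the same sign (0.42 ± 0.10 and -0.44 ± 0.10). At day 10, mir-86 was called with the same sign (0.48 ± 0.10), while mir-36 (-0.64 ± 0.14) and mir-39 (-0.39 ± 0.10) were called with the opposite sign. None of the 17 was called at day 20, which had 2 libraries per group.

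**Figure D5:**
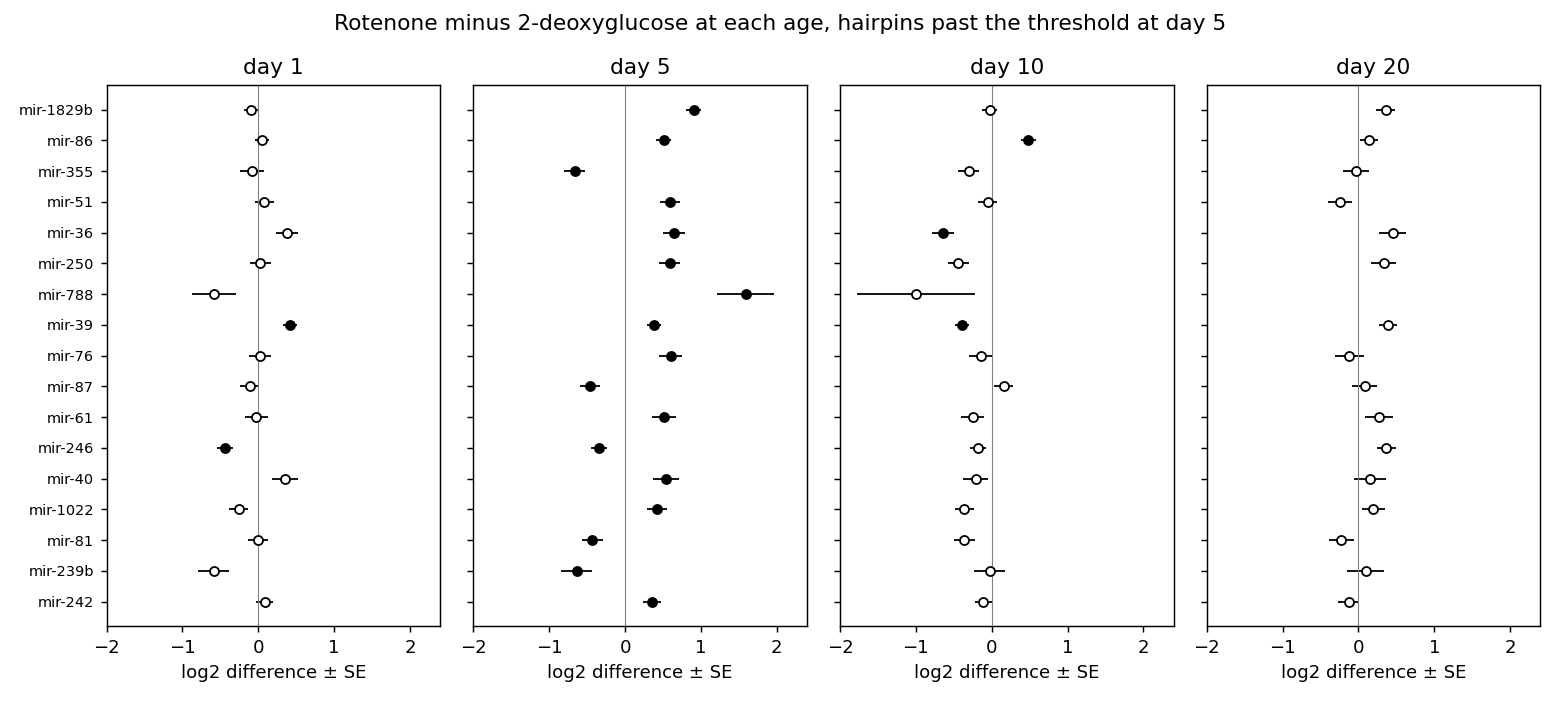
Log2 difference, rotenone minus 2-deoxyglucose, with its SE (bars) at days 1, 5, 10 and 20 for the 17 hairpins called at day 5. Filled points passed an edgeR adjusted p of 0.05 at that age; mir-788 is not drawn at day 20, where both 2-deoxyglucose libraries had no count. mir-86 is filled on the same side at days 5 and 10, and mir-36 and mir-39 are filled on opposite sides.

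The difference between ages was tested directly in edgeR, with contrasts that use the day 5 libraries again, so that hairpins called at day 5 start with an advantage. Against day 1 the difference departed in 11 of 132 hairpins (8.33%), among them 4 of the 17: mir-1829b, mir-788, mir-1022 and mir-86. Against day 10 it departed in 23 (17.4%), among them 11 of the 17. For mir-1829b the groups were alike at day 1 (301, 332 and 320.2 CPM against 349, 343 and 326 CPM) and at day 10 (211, 234 and 214 CPM against 226, 221 and 224 CPM). Its day 5 difference exceeded that of day 1 by 1.00 ± 0.14 (edgeR adjusted p = 5.57e-05) and that of day 10 by 0.93 ± 0.15 (edgeR adjusted p = 0.000241), and both calls held in each of the 6 single omissions.

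The mir-35 family stood above 0 at days 1 and 5 and below 0 at day 10. All 8 members had positive differences at day 1 (median 0.40), where 3 passed as higher in rotenone: mir-38, mir-39 and mir-42. All 8 had negative ones at day 10 (median -0.40), where mir-36 and mir-39 passed. The day 5 difference exceeded that of day 10 in 6 of the 8 by the test of the difference itself, with 1.29 ± 0.20 for mir-36 (edgeR adjusted p = 0.000241) and 0.77 ± 0.14 for mir-39 (edgeR adjusted p = 0.000661) in front. At day 10 mir-36 held 2409, 3252 and 2787 CPM in rotenone and 4812, 4169 and 4222 CPM in 2-deoxyglucose, a separation opposite to that of day 5. Only mir-36 and mir-39 kept this call without rotenone library 2, and with lane as a factor 2 of the 8 passed. Against day 1 mir-42 was the only member to depart, with a day 5 difference of 0.15 ± 0.20 after one of 1.91 ± 0.21 at day 1.

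For mir-250 the difference turned from 0.59 at day 5 to -0.44 ± 0.14 at day 10 (rotenone 354, 484 and 489 CPM, 2-deoxyglucose 638, 607 and 557 CPM). The departure was 1.03 ± 0.19 (edgeR adjusted p = 0.00117). For mir-788 the day 1 groups lay in the other order, with 24.2, 15.04 and 25.5 CPM in rotenone and 25.6, 38.0 and 36.4 CPM in 2-deoxyglucose, and the departure from day 1 was 2.17 ± 0.47 (edgeR adjusted p = 0.0054; 0.154 with lane as a factor). At day 10 mir-788 had 5, 0 and 1 counts against 5, 5 and 4. For mir-86 and mir-1022 the departures from day 1 were 0.46 ± 0.14 (edgeR adjusted p = 0.0399) and 0.69 ± 0.18 (edgeR adjusted p = 0.0236). Among the 6 single omissions the mir-86 departure held only without rotenone library 1. The departure of mir-1022 was lost without rotenone library 3, 2-deoxyglucose library 1 or 2-deoxyglucose library 3. Omitting rotenone library 3 or 2-deoxyglucose library 1 also changed the scaling of the other ages. In either omission the mir-35 family median at day 1 was 0.54 instead of 0.40. Losses there therefore reflect scaling as well as the library.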

How the data were processed

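Per the labels' protocols, a TruSeq kit was used to prepare the small RNA libraries. The submitters' processing notes list BWA 0.7.12-r1039, SAMtools 1.3.1-9, Trimmomatic 0.36 and CASAVA 1.8.4. For the build, strand use and reads that map to several hairpins, nothing is given in the sources used here. In the table deposited by the authors, raw counts stand for 250 hairpins in 22 libraries, and 0 columns belonged to other samples.

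Groups came from the labels. The counts were fitted with edgeR 4.0.16 in R 4.3.3 (TMM, 22 libraries in 8 groups, robust quasi-likelihood test, Benjamini-Hochberg adjustment at 0.05 over the 132 hairpins with at least 10 counts in 3 of the 6 day 5 libraries). SE is the log2 difference divided by the square root of F. The median biological coefficient of variation was 14.5%. Alternatives used DESeq2 1.42.0 and limma 3.58.1, other scalings and filters, lane as a factor and omitted libraries. With a library left out, the 2 that remain are assumed to vary like the other groups. Pairs of libraries in a group differed beyond counting noise (chi-square per degree of freedom 57.6 to 327.5), so none was counted as a repeat. The code was also run on simulated counts that took their spread from all 22 libraries. That run did not hold the larger spread of day 5, so it cannot show how the day 5 test fares there.

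Positions come from Ensembl 115 (WBcel235) by hairpin name, for 247 of the 250. Hairpins named are the day 5 calls, the 6 nearest the threshold, the 8 most abundant, a follow set of 15, the 3 largest differences of each list and the 5 largest that did not pass. Outside this rule, other list members (mir-38, mir-41, mir-42, mir-53, mir-54, mir-55, mir-66, mir-790 and mir-791) are given where their list is described, hairpins whose difference departed between ages are given as such, and the rest are stated as chosen after their values were seen. Members and lists were chosen with earlier results of these data known.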

Additional observations from a re-analysis of the deposited data

Results flagged for a closer look

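Each of the following hairpins is listed because its difference between rotenone and 2-deoxyglucose at day 5 departed from that at another age, by the edgeR test of that departure (log2, day 5 minus the other age). Against day 1 the departures were -3.93 for mir-8199, -1.95 for mir-43, -1.77 for mir-42, -1.22 for mir-1018, -0.96 for mir-4813, -0.74 for mir-44 and -0.71 for mir-45, and 2.17 for mir-788, 1.00 for mir-1829b, 0.69 for mir-1022 and 0.46 for mir-86. For mir-44 and mir-45 no single age was called: the day 5 log2 differences were -0.32 ± 0.15 for each, and those of day 1 were 0.42 ± 0.15 and 0.39 ± 0.15. For mir-8199 the day 1 counts were 33, 50 and 49 in rotenone and 2, 1 and 3 in 2-deoxyglucose, while at day 5 the groups overlapped with a log2 difference of 0.24 ± 0.26. For mir-43 the day 1 levels were 36.3, 31.8 and 33.3 CPM against 8.83, 10.2 and 7.43 CPM, and the day 5 log2 difference was -0.01 ± 0.20. Calls for mir-8199, mir-1829b, mir-43, mir-42 and mir-788 held in each of the 6 single omissions; with lane as a factor those for mir-8199, mir-1829b, mir-43 and mir-42 remained.

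Against day 10 the departures above 0 were 2.59 for mir-788, 1.29 for mir-36, 1.09 for mir-789-2, 1.03 for mir-250, 0.96 for mir-35, 0.94 for mir-37, 0.93 for mir-1829b, 0.83 for mir-38, 0.79 for mir-1022, 0.77 for mir-39, 0.76 for mir-61, 0.76 for mir-40, 0.74 for mir-76, 0.66 for mir-254, 0.64 for mir-51, 0.60 for mir-59, 0.51 for mir-34 and 0.42 for mir-245. Those below 0 were -0.69 for mir-65, -0.69 for mir-241, -0.68 for mir-64, -0.62 for mir-87 and -0.49 for mir-80. For mir-64 the day 10 levels were 15935, 14248 and 13413 CPM in rotenone against 10751, 10714 and 11181 CPM in 2-deoxyglucose, without overlap, whereas the day 5 levels overlapped (14587, 9661 and 10611 CPM against 10651, 16674 and 14489 CPM). The neighbour mir-65 had the same order of groups at day 10. Without rotenone library 2 of day 5, 5 of the 23 remained: mir-1829b, mir-36, mir-39, mir-250 and mir-1022. The largest departure, that of mir-788, had an SE of 0.87 (edgeR adjusted p = 0.0453) and held in only 1 of the 6 single omissions. Those of mir-254 and mir-34 also held in only 1, and those of mir-40 and mir-245 in 2. No cause of these departures was tested.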

How the results depend on the processing

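The count of 17 (12 higher, 5 lower) at day 5 became 7 with limma-voom and quality weights, 0 with edgeR, 0 with limma-voom and 2 with DESeq2 on the 6 libraries alone, 9 with no filter, 10 with lane as a factor (8 higher, 2 lower), and 29 without library 1 of both groups (15 higher, 14 lower), of which 9 were among the 17. Leaving out 1 library at a time gave 11 to 21. TMM factors that ignored the 5 most abundant hairpins and the mir-35 family gave 20 higher and 1 lower. The split was 11 higher and 9 lower without rotenone library 1, 9 and 12 without 2-deoxyglucose library 1, 13 and 2 without rotenone library 3, 12 and 2 without 2-deoxyglucose library 2, and 12 and 2 with filterByExpr. Omitting 2-deoxyglucose library 1 or rotenone library 3 also moved the scaling of the ages from which no library was omitted. The 11 departures from day 1 became 4 with lane as a factor, 21 without library 1 of both groups and 6 to 12 in the single omissions. The 23 departures from day 10 became 15 with total counts as library size, 10 with no filter, 12 with lane as a factor and 5 to 23 in the single omissions. Over the 55 named hairpins no called sign turned in any alternative, but all alternatives reuse the day 5 libraries. A call was lost in 140 values and gained in 37. The cause of these changes was not tested. No paired analysis was possible because the labels carry no replicate numbers shared across groups. Scarce hairpins are limited by depth, since 3 counts were worth 1.52 to 5.12 CPM; floors cover counting error only.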

Other observations

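Without library 1 of both day 5 groups, 20 hairpins beyond the 17 were called, chosen here after their values were seen. The leading axis had placed those libraries with the other group, so leaving them out favours hairpins that follow this axis. These calls are therefore no separate support for a difference between the treatments. Those higher in rotenone included the intestinal mir-60 (0.94 ± 0.29), mir-54 (0.79 ± 0.23), mir-2 (0.76 ± 0.17), mir-74 (0.73 ± 0.18) and mir-38 (0.69 ± 0.17), and those lower included mir-230 (-0.82 ± 0.16), mir-235 (-0.79 ± 0.15), mir-65 (-0.67 ± 0.12), mir-64 (-0.66 ± 0.12) and mir-80 (-0.44 ± 0.12). With all 6 libraries these differences were 0.23 ± 0.32 for mir-60, 0.09 ± 0.29 for mir-54 and -0.26 ± 0.15 for mir-64.

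Among the 78 hairpins with counts that were too scarce to test, 15 were seen in rotenone libraries only, 15 in 2-deoxyglucose libraries only and 48 in both. The highest was mir-4937 with 55 counts over the 6 libraries. Hairpins mir-5552 and mir-1828 were chosen after their values were seen, and their counts are not scaled for depth. Hairpin mir-5552 had 12, 16 and 7 counts in the rotenone libraries and 4, 3 and 2 in the 2-deoxyglucose libraries. Hairpin mir-1828 had 6, 1 and 2 counts in rotenone and 0 in 2-deoxyglucose. With the 2-deoxyglucose group set at its floor of 3 counts in all, mir-1828 was 1.69-fold higher in rotenone after scaling. That value takes the few rotenone counts, mostly from 1 library, as exact, so it is not a lower limit.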
